A study of Mus musculus with 36 samples.

Results

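The genes described here encode the proteins of the cytosolic ribosome. They were chosen by name and gene type: protein-coding genes called Rpl or Rps with a number and, in some, a final a, l or x, together with Rplp0, Rplp1, Rplp2 and Rpsa. Of the 55359 genes in the deposited table, 83 fitted the name. Rps4l, Rpl6l and Rpl32l were left out because the annotation does not call them protein-coding, which left 80 genes, 31 of the small and 49 of the large ribosomal subunit. The name misses some ribosomal protein genes, such as Fau and Rps3a1, which are given with the ribosome-associated genes.

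A cytosolic ribosome is built from a small subunit, which holds the messenger RNA and reads its codons, and a large subunit, which joins the amino acids. Each subunit holds many proteins, nearly all in a single copy per ribosome, so their genes are often treated as one group that is made in balance. Their mRNAs typically begin with a C followed by a run of pyrimidines, the terminal oligopyrimidine tract, on which the mTOR pathway and the protein Larp1 act to control translation. A few members have a second copy of narrower use, such as Rpl10l and Rpl39l, known from mouse testis, and Rpl3l, known from striated muscle.

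The data were 36 single-cell libraries from mouse midbrain, each labelled Neuron and prepared from poly(A) RNA by the kit named SMART-Seq Single Cell PLUS. All mice carried the MADM reporter written M11GTTG, which colours the descendants of single progenitors, and all were of mixed C57/Bl6, FVB and CD1 background with labelling induced on embryonic day 12. A pair of cells was sequenced from each of 18 clones, a clone being the neurons of 1 radial glia progenitor. The driver of recombination was Fz10-CreER in 22 cells of 11 clones and Sox2-CreER in 14 cells of 7 clones. By tissue, 22 cells of 16 clones were labelled sSC and 12 cells of 11 clones dSC, read here as superficial and deep superior colliculus, and 2 cells PAG, read as periaqueductal grey. In 9 clones 1 cell was sSC and the other dSC. Age at collection is not given per cell, and the animals are not named. The p-values below rest on the spread between clone means, and clones may share an animal. In the tissue, interaction and genes-detected fits, the 9 clones with both tissues gave 1 mean per tissue. These were taken as separate unless the clone was fitted as a block. The test among clones instead sets differences between clones against the spread within them.

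Each value is an exon TPM plus an intron TPM of the gene, as the authors named it. By that name the values are per length, and levels of different genes are set side by side here on that reading, since the formula itself is not stated. Every cell sums to 2000000, and depth is unknown. Genes detected, counted here as those valued at 1 or above, numbered 2661 to 16769 per cell with a median of 12058. The sSC cell of clone B stood apart at 2661, with the next lowest at 6180 in the sSC cell of clone H, and results that rest on it are given with and without it. Of 10 neuron markers, 8 were at 1 or more in every cell, and their summed value was 1072 in the sSC cell of clone B and 2795 or more in the others. Markers of other cells were also present: the 12 microglial markers summed to 85.4 to 14348 per cell, the 11 oligodendrocyte markers to 1192 to 28889, the 10 astrocyte markers to 130 to 2852, the 4 red blood cell markers to 0 to 9623 and the 10 endothelial and meningeal markers to 0 to 1274. None of these markers was below 1 in every cell. Their part in the values of the ribosomal protein genes was not tested.

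Start sites are shown for some members at both ends of the range of levels, because the pyrimidine run typical of these mRNAs lies at the start of the transcript. RefSeq windows on GRCm38.p6 were found for 60 of the 80 genes. Each line runs from 30 bases before the annotated start to 20 bases after it, 5′ to 3′ on the gene's strand, with the longest unbroken run of C and T in capitals. Rps27 and Rpl41 are among the 5 highest members, Rpl27a and Rps10 among the 10 lowest of those tested, and Rpl39l and Rpl10l were listed at 0 in every cell.
Rps27: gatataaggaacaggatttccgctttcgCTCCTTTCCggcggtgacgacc
Rpl41: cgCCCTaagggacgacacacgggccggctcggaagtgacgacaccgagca
Rpl27a: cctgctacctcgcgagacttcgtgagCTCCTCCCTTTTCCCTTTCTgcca
Rps10: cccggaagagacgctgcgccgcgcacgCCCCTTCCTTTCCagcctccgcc
Rpl39l: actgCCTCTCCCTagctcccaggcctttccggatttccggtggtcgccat
Rpl10l: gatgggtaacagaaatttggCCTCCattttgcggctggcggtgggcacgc
These stretches lie at chr3:90213629-90213678 (minus strand), chr10:128549149-128549198 (minus), chr7:109519165-109519214 (plus), chr17:27635225-27635274 (minus), chr16:10170198-10170247 (plus) and chr12:66284382-66284431 (minus), in the order printed. The run was 9 bases in Rps27 and 13 in Rps10, and both spanned the annotated start. In Rpl27a, a low member, it was 20 bases and also spanned the start. In the stretch printed for Rpl41 no run was longer than 4 bases. In the same stretches of Rps15, a high member, and of Rps15a and Rpl13a, low members, the longest runs were 7, 10 and 14 bases. None of these runs, which are not printed, spanned the annotated start. The starts are those annotated, and whether they are the starts used in these cells was not tested.

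Some members have several annotated starts, so 72 windows of 300 bases were searched for the 60 genes. A run of at least 8 C or T within 25 bases of the start was present in 33 of these 72 windows, 45.8%, and in 19.7% of all 32851 windows of the table. A C within 2 bases of the start that opens a pyrimidine run of at least 5 bases was found in 22 member windows, 30.6%, and in 8.96% of all. The letters CCGGAAG, on either strand and anywhere in the window, were in 36.1% of member windows and 8.86% of all. The letters GCCATCTT, searched likewise, were in 9.72% and 2.75%. TATAAA within 50 bases before the start, on either strand, was in 0 member windows and 3.50% of all. These counts describe letters in the windows, and the motifs may overlap one another.

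The ribosomal protein genes were among the most abundant transcripts of these neurons. Of the 80, 77 were at 1 or more in at least 25% of cells and were tested, and their median values over 36 cells ran from 32 to 2024. The median of these medians was 329, against 12.8 for all 14902 genes passing the same filter, and 65 of the 77 lay above 133, the 90th percentile of all those genes. The small and the large subunit were alike in this, with a median of 291 over 31 small-subunit genes and 347 over 46 large-subunit genes. In all, 46 members were at 1 or more in every cell, and 70 were so in every cell other than the sSC cell of clone B. In that cell 29 of the 77 were listed at 0, among them Rps27a, Rps15, Rpl19 and Rpl32, which are high members elsewhere.

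**Figure D1:**
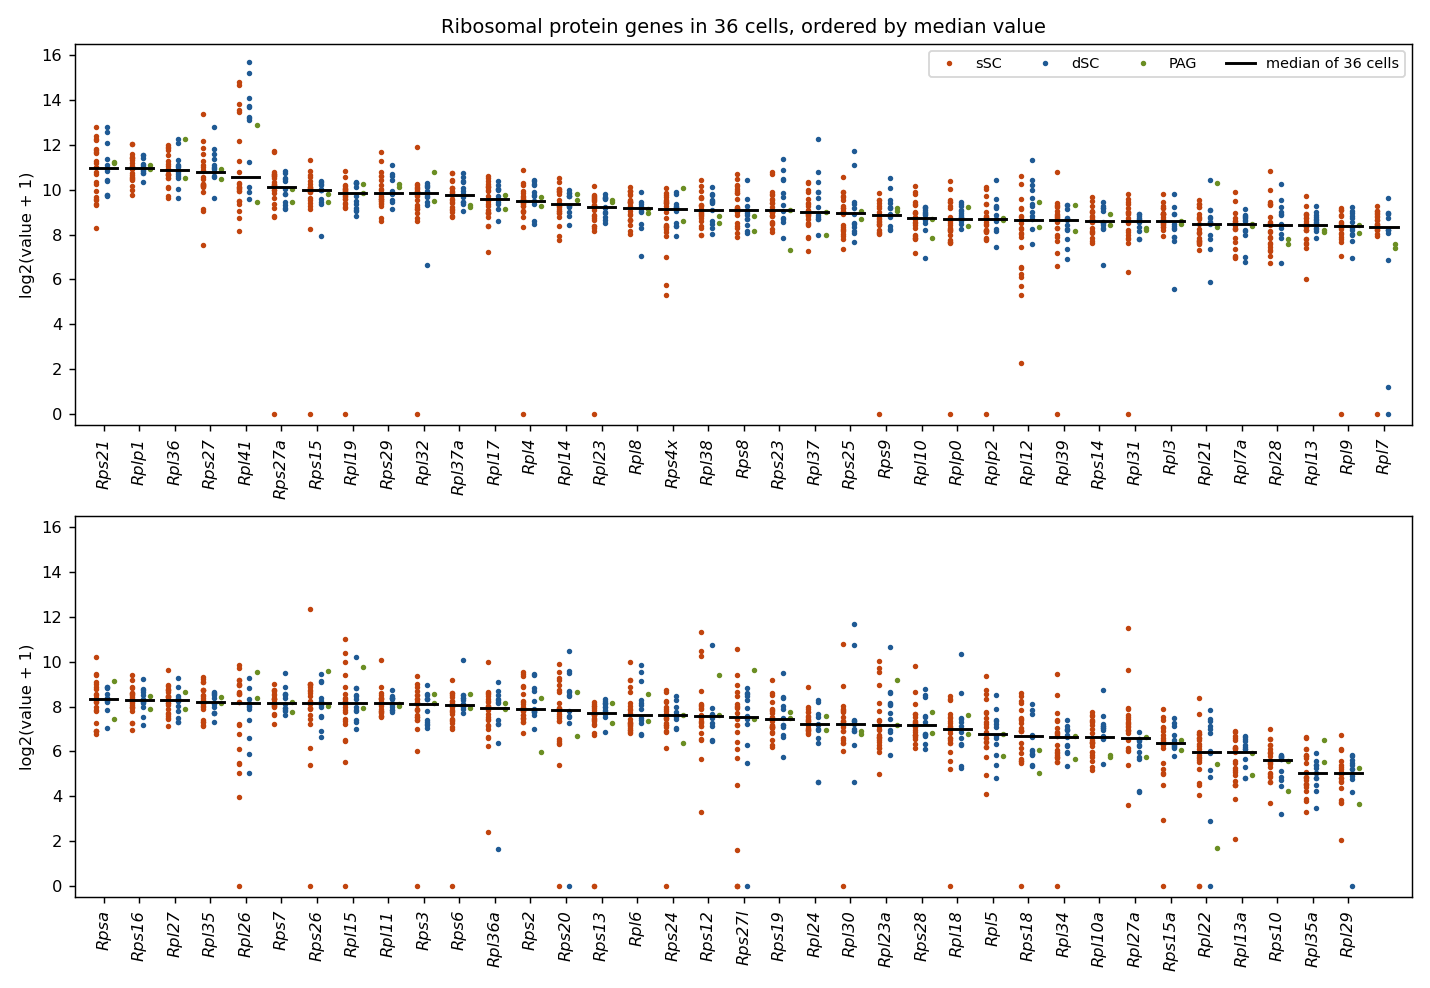
Values of 73 of the 77 tested ribosomal protein genes as log2(value + 1), ordered by their median over 36 cells (black bars), with each point 1 cell of sSC, dSC or PAG. Medians fall gradually from 2024 for Rps21 to 32 for Rpl29, most points at 0 belong to the sSC cell of clone B, and Rpl41 is spread more widely than its neighbours in the order.

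The 8 highest members held 34.4% of the sum of all medians. Members with shorter annotated exons tended to stand higher in this order. Spearman's correlation between exon length and median value was -0.54 over the 77 tested genes, and the part of length in the levels was not tested. Rps21, a small-subunit protein needed for processing of the small-subunit rRNA, had a median of 2024 (lowest 318, highest 7217). Rplp1, one of the acidic stalk proteins that recruit elongation factors, had 2015 (875 to 4204). Its stalk partners were lower, with a median of 417 for Rplp0, the base of the stalk, and 414 for Rplp2. Annotated exons cover 499 bases in Rplp1, 1659 in Rplp0 and 2072 in Rplp2. Rpl36 had a median of 1882 (797 to 4942) and Rps27, a zinc-finger protein of the small subunit, 1794 (185 to 10683). Rpl41, the shortest protein of the ribosome, followed at 1510, with a range described below. Rps27a, which is made as a fusion with ubiquitin, had 1117 (0 to 3437). Rps15, which sits near the decoding site, had 1014 (0 to 2555).

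At the other end, the 3 narrow paralogs were nearly absent. Rpl10l and Rpl39l were listed at 0 in all 36 cells, and Rpl3l was above 0 in only 2 cells, at 251 in an sSC cell of clone K and 66.1 in an sSC cell of clone N. The lowest members detected broadly were Rpl29 at a median of 32 (0 to 105), Rpl35a at 32.2 (8.96 to 99.7), Rps10 at 47.5 (8.18 to 127), Rpl13a at 61.9 (3.27 to 118) and Rpl22 at 62.1 (0 to 331). Rpl13a is known also as a regulator of inflammatory mRNAs outside the ribosome. Rpl22, which binds RNA and has a paralog that can stand in for it in mouse, was at 1 or more in 33 of 36 cells.

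Ribosomal protein genes have many processed pseudogenes, and reads from near-identical copies may have been divided between them by the authors' counting, whose rules for such reads are not stated. The 300 annotated pseudogenes summed to a median of 2247 per cell (1317 to 4021), against 44302 for the 80 genes, and 72 of them were at 1 or more in at least 25% of cells. Rpl7a-ps12 alone had a median of 788, above the 352 of Rpl7a itself, so the level of Rpl7a is uncertain. In 21 of the 80 genes the annotation also places another gene on the opposite strand, and strand use is not stated.

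Summed over all 80 genes, the value per cell had a median of 44302, or 2.22% of the total of a cell, with a range of 1.24% to 5.12%. By tissue the clone means were 2.19% ± 0.55 in sSC (SD, n = 16 clones) and 2.86% ± 1.00 in dSC (SD, n = 11 clones). Without Rpl41 the shares were 1.96% ± 0.44 in sSC and 2.10% ± 0.38 in dSC, within 1 SD of each other, and the 2 PAG cells had 1.84% and 1.98%. Rpl41 made up 52.4% of the summed value in the dSC cell of clone L, 45.1% in the dSC cell of clone D and 42.3% in 1 sSC cell of clone M, against a median of 3.26% over all cells.

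The mean of log2(value + 1) over the 77 tested genes gives each gene the same weight. It was 8.08 ± 0.80 in sSC (SD, n = 16 clones) and 8.37 ± 0.27 in dSC (n = 11 clones), and 8.27 ± 0.31 in sSC once the clone B cell was left out (n = 15 clones). The 3 cells with the lowest mean were the sSC cell of clone B at 5.31, the sSC cell of clone Q at 7.82 and the dSC cell of clone D at 7.90. The 3 highest were the sSC cell of clone H at 8.96, the dSC cell of clone I at 8.83 and the dSC cell of clone C at 8.69. Both ends hold sSC and dSC cells. The sSC cell of clone H also had the highest summed microglial markers of any cell, 14348 against a median of 2147, and its summed neuron markers, 2929, were below the median of 5549. Over 36 cells the mean of the ribosomal protein genes went with the summed microglial markers with Spearman's rho 0.45. It was 0.56 without the clone B cell and 0.52 without the sSC cells of clones B and H. With the summed ribosomal protein pseudogenes rho was 0.59, or 0.56 without the clone B cell, 0.53 in sSC and 0.83 in dSC. Both are descriptions over cells that share clones, and the part of the markers and of the pseudogenes in the values was not tested.

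Members moved together only weakly from cell to cell. Spearman's correlation of each gene with the mean of the other 76 over 36 cells had a median of 0.28 and a range of -0.11 to 0.65, and 71 of 77 were above 0. For the other 14825 genes tested, the median correlation with the same mean was 0.06, and 0.371% were above 0.5, against 11 of the 77 members. Some gene lists went with that mean more than the members did. The median was 0.39 for microglial markers and 0.30 for red blood cell markers, and -0.02 to 0.20 for the other lists of this report. Without the clone B cell these markers had 0.37 and 0.25. With a linear fit on genes detected removed they had 0.31 and 0.38, and ribosome-associated genes had 0.34. Across the 2926 pairs of members the median correlation was 0.10, with 71.1% above 0. After removal of a linear fit on genes detected the members' median was 0.28, without the clone B cell it was 0.26, and without that cell and with cells rescaled after leaving out genes above 1% of a total it was 0.35. The means of the small-subunit and the large-subunit genes had a rho of 0.77 over 36 cells and 0.75 without the clone B cell; means over many genes correlate more than single genes do, so this cannot be set against the values above. All these values share libraries and scaling and are given without a test.

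Among the members most like the rest were Rps20 (rho 0.65), Rps29 (0.56) and Rpl13 (0.56). The 4 least like the rest were Rpl15 (-0.11), Rpl36 (-0.07), Rpl5 (-0.07) and Rpl34 (-0.06). Rpl5 carries the 5S rRNA into the large subunit and is known as a regulator of Mdm2. Rpl36, the third highest member, had an SD of log2 values of 0.71 without the clone B cell. The gene with the smallest spread was Rpl11, the partner of Rpl5, with an SD of 0.33 over 35 cells. The widest were Rps27l at 2.66, Rpl41 at 2.15, Rpl22 at 1.95 and Rpl7 at 1.93. The median SD over the 77 genes was 0.78, against 2.01 for all genes tested, which are also lower in level.

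Rank order among members was shared by most cells. Over the 77 genes, 2 cells of a clone correlated with a median rho of 0.70 (0.33 to 0.83 over 18 clones), and the 612 pairs of cells from different clones had a median of 0.70 (0.18 to 0.88). The 2 medians are the same to this precision, and the difference was not tested.

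Rpl41 had the widest ratio of highest to median value among the members, 35.6. It encodes a very short basic peptide that bridges the subunits. It was at 286 to 28595 in sSC cells with a median of 1111, at 774 to 53701 in dSC cells with a median of 9484, and at 691 and 7691 in the 2 PAG cells. Its values left a gap between 4624 and 7691: 14 cells lay above it, 5 of 22 in sSC, 8 of 12 in dSC and 1 of 2 in PAG. The 5000 mark between them was set after the values were seen. High and low cells were present in both tissues, so the ranges overlap.

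In the 9 clones with both tissues, the sSC cell was below its dSC partner every time. Clone A had 533 in sSC and 2413 in dSC, clone B 1104 and 17478, and clone C 721 and 1128. For clone F the values were 999 in sSC and 13627 in dSC, for clone I 1071 and 9362, and for clone J 429 and 9605. Clone L had 14552 in sSC and 53701 in dSC, clone Q 723 and 8914, and clone U 12040 and 13042. The dSC value was thus 1.08 to 22.4 times the sSC value, with a median of 8.74. Of all 14613 genes in the tissue comparison, 0.424% were lower in the sSC cell of all 9 clones and 0.0342% were higher in all 9. Rpl41 was the only 1 of 77 members in the first set, and the second held 0.

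Clones whose cells were both sSC could also differ, though by less than the widest of the clones with both tissues. In clone M the 2 sSC cells had 25758 and 4624, in clone R 28595 and 2514, and in clone T 11317 and 1253. In clones K, N and S both sSC cells were between 286 and 1223, and both dSC cells of clone O were at 962 and 774. Clone D had 38345 in its dSC cell and 691 in its PAG cell, and clone H had 1768 in its sSC cell and 7691 in its PAG cell.

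**Figure D2:**
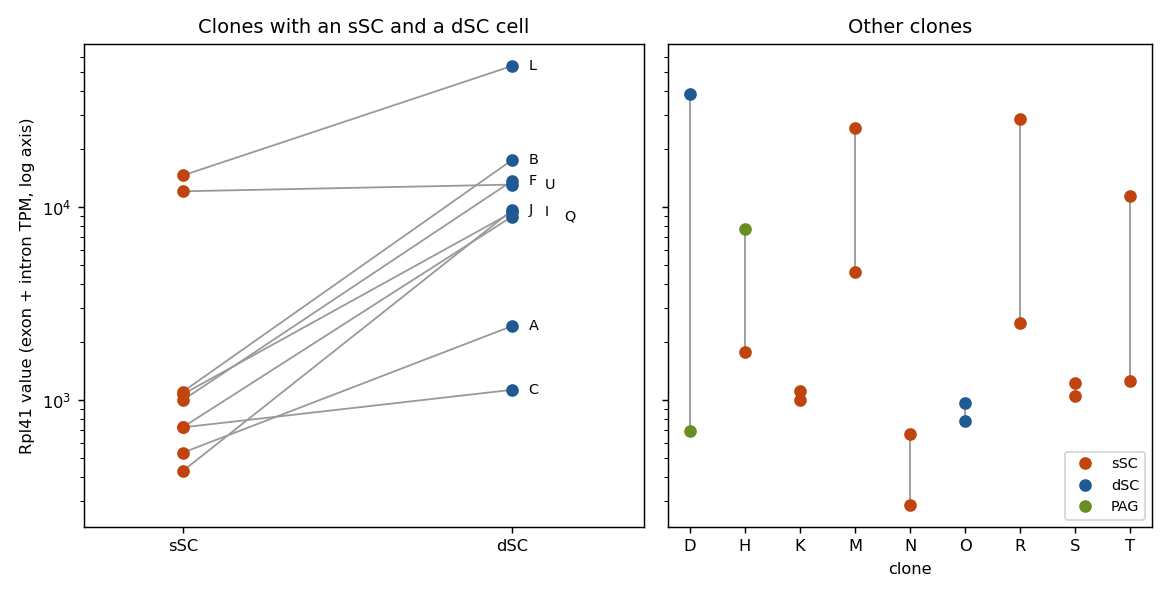
Rpl41 value per cell on a log axis. On the left, lines join the sSC and the dSC cell of 9 clones, and all lines go up toward dSC, from 1.08 to 22.4 times; on the right, the other 9 clones, in which 2 sSC cells of a clone are as far apart as 28595 and 2514.

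In the tissue comparison, clone means of log2(value + 1) for Rpl41 were 10.78 ± 1.78 in sSC (n = 16 clones) and 13.01 ± 1.91 in dSC (n = 11 clones), a difference of -2.23 (SE 0.63). It had the smallest p of the members but did not pass (limma adjusted p = 0.933 over all genes). Blocking on clone gave -2.64 (SE 0.48, limma adjusted p = 0.164). Over 30 alternative settings the difference stayed between -2.64 and -2.01 with adjusted p between 0.164 and 1. Genes detected were also fewer in sSC than in dSC in 7 of these 9 clones. The settings above include fits with genes detected as a covariate. The slope of Rpl41 on genes detected was -0.10 per 1000 genes on the log2 scale (limma adjusted p = 0.433). Beyond these fits, the part of genes detected in the Rpl41 values was not tested.

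Rpl41 also had the least intron of all 75 tested members that have any intron outside annotated exons. In GENCODE M21 only 24 bases of the gene are intron alone, against a median of 1167 over the 77 tested genes, and its exons cover 1168 bases. The deposited value is named as adding an intron TPM, but whether and how intron length was a divisor is not stated. Other members with little intron also reached high single values. Rps12, with 66 intron bases, had a median of 190 and reached 2592 in an sSC cell of clone U. Rpl30, with 116, had 148 and reached 3283 in the dSC cell of clone U. Over the 11 tested members with some intron-only bases but under 300, the highest value was a median of 5.95 times the median value (2.69 to 35.6). Over the 64 with 300 or more, it was 3.10 times (1.90 to 29.6). Rpl9 and Rps13 have no intron-only bases and are in neither group. Their ratios, 1.84 and 1.53, were below those of both groups. Spearman's correlation between intron-only length and this ratio was -0.36 over 75 members and -0.33 without Rpl41, given as a description across genes of the same libraries. The intron part cannot be separated from the exon part in the deposited values, and the part of intron length in the Rpl41 values was not tested.

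**Figure D3:**
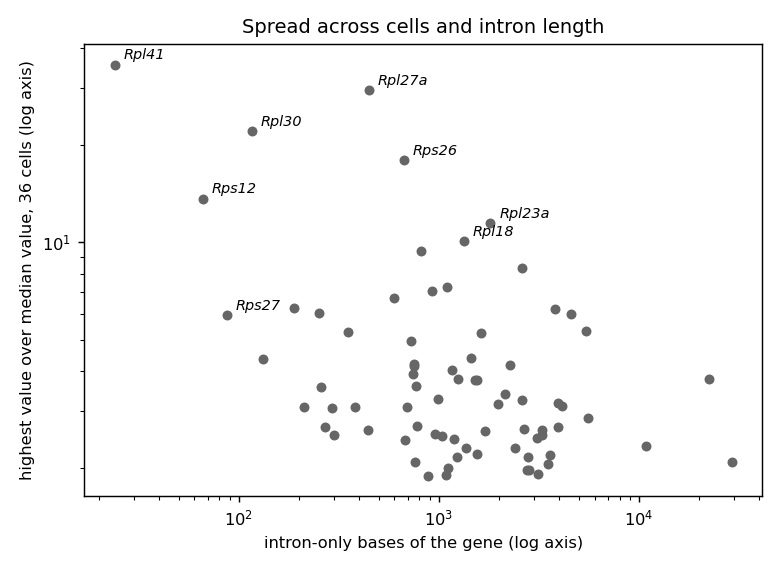
Ratio of a gene's highest to its median value over 36 cells against its intron-only length, both on log axes, for 75 tested members with intron-only bases. Rpl41 is at the upper left with 24 bases and a ratio of 35.6 and Rpl27a, which has more than 300 intron-only bases, is next highest at 29.6.

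Among members with longer introns, single cells also stood far above the rest. Rpl27a had a median of 97.1 and 2873 in the sSC cell of clone C, and Rps26, a protein at the mRNA exit channel, had a median of 288 and 5164 in an sSC cell of clone S. Of the 77 genes, 7 had a highest value above 10 times their median.

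No ribosomal protein gene passed the test between tissues. Of 14613 genes, 0% were called between sSC and dSC by limma on clone means at an adjusted p under 0.05, and 754 genes had an unadjusted p under 0.05. Among members, 0 of 77 were called and 2 had an unadjusted p under 0.05. With the clone as a block 0.00684% of genes were called, which was 1 gene and no member. In that fit 3 members had an unadjusted p under 0.05, against 1313 of the 14613 genes. In the main comparison 16 members were higher in sSC and 61 lower, with a median difference of -0.26 against -0.31 for all genes tested. Of all 14613 genes, 4773 were higher in sSC and 9840 lower. Without the clone B cell 26 were higher and the median was -0.08, against -0.14 for all genes. The place of the members beside all genes depended on the scaling: with quantile normalization 13 members were higher with a median of -0.27, against -0.01 for all genes, and with genes detected as a covariate 25 were higher with a median of -0.15, against 0.07 for all genes. Markers of microglia were lower in sSC for 11 of 12 genes, with a median difference of -1.01, and their part in the members' values was not tested.

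The lowest p after Rpl41 belonged to Rpl12, a protein of the stalk base that shares its locus with Lrsam1 on the opposite strand. It was at 3.84 to 1565 in sSC cells with a median of 285, and at 193 to 2541 in dSC cells with a median of 642. Its difference was -1.76 (SE 0.62, limma adjusted p = 0.933), and the groups overlapped. In the other direction were Rpl27a with 1.23 (adjusted p = 0.961), Rpl24 with 0.60 and Rpl3, the protein nearest the peptidyl transferase centre, with 0.56 (both adjusted p = 0.971). None of these passed.

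No member passed between drivers either. In sSC, 0% of 14320 genes were called between Fz10-CreER and Sox2-CreER clones (limma, n = 11 and n = 5 clones), with 587 genes at an unadjusted p under 0.05. Of the members, 0 of 77 were called and 1 had an unadjusted p under 0.05. There 29 members were higher in Fz10-CreER clones, with a median difference of -0.20, against -0.38 for all genes. Without the clone B cell 34 were higher, with a median of -0.01 against -0.15, and without clone H 37, with a median of -0.03 against -0.78. Without clone Q 14 were higher, and the members' median of -0.36 was then below the -0.14 of all genes. Leaving out single clones gave member medians of -0.36 to -0.01. Astrocyte markers were lower in Fz10-CreER clones for 9 of 10 genes (median -0.89), as were 9447 of all 14320 genes. In dSC (n = 7 and n = 4 clones), 0.00613% of 16310 genes were called, which was 1 gene. Of the members 0 of 77 were called and 2 had an unadjusted p under 0.05, against 785 of all genes. There 42 members were higher in Fz10-CreER clones, with a median of 0.06 against 0.37; without clone D 36 were higher, with a median of -0.01 against 0.05, and leaving out other single clones gave member medians of -0.02 to 0.08. Microglial markers were higher in Fz10-CreER dSC clones for 12 of 12 genes (median 1.14) and red blood cell markers lower for 4 of 4 (median -1.41). Of all 16310 genes, 10353 were higher in these clones and 5957 lower. The part of these markers in the members' values was not tested.

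Rps27l, a p53-responsive paralog of Rps27, had the smallest p in sSC. In Fz10-CreER sSC cells it was at 0 to 681 with a median of 83.4, and it was listed at 0 in 3 of these 15 cells. In Sox2-CreER sSC cells it was at 173 to 1525 with a median of 357. The clone means differed by -3.67 (SE 1.42, limma adjusted p = 1), and the ranges overlap. In dSC the order was the other way: 43.8 to 387 with a median of 316 in Fz10-CreER cells, and 0, 76.7, 175, 192 and 456 in Sox2-CreER cells, a difference of 2.14 (SE 1.22, adjusted p = 0.903). The value of 0 was the dSC cell of clone D. Leaving out single clones gave dSC differences of 0.26 to 2.79, the smallest without clone D. The change of the driver difference between tissues was tested as an interaction. It was -5.81 for Rps27l (SE 2.09, adjusted p = 0.792). The interaction includes that cell and was not refitted without clone D. By that test 0.00684% of 14613 genes were called and 0 of 77 members, and Rps27l did not pass. An unadjusted p under 0.05 was found for 2 members and 845 of all genes.

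Other members with the smallest p in sSC were Rpl23a at -1.34 and Rpl30 at -1.49, lower in Fz10-CreER clones, and Rps27 at 0.83, Rps4x, encoded on the X chromosome, at 0.80 and Rpl34 at 1.18, higher in them (each with limma adjusted p = 1). In dSC, Rpl6 was at -1.23 (SE 0.53) and Rpl5 at -1.53 (SE 0.66), both with adjusted p = 0.903. Rpl28 at -0.97, Rpl23a at 1.25 and Rpl26 at 1.00 had the same adjusted p. Rpl23a, which lies at the tunnel exit where signal recognition particle docks, was lower in Fz10-CreER clones in sSC and higher in dSC, with an interaction of -2.58 that did not pass (adjusted p = 0.827).

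Differences among clones were tested next on single cells, with tissue in the fit, over the 16 clones without a PAG cell. Of 15132 genes 0.0198% were called, which was 3 genes, and 0 of 77 members were called, with 4 at an unadjusted p under 0.05 against 1180 of all genes. The correlation between the 2 cells of a clone, after tissue means were taken out, was largest for Rpl41 at 0.51. Rpl41 also had the smallest p of the members in the test over clones (limma F test, adjusted p = 0.233). Among the members with the next smallest p, the correlation was 0.37 each for Rps15 and Rpl26, 0.33 for Rps27l and 0.29 for Rplp2. Their adjusted p by that F test was 0.485 to 0.643. The median over members was 0.06 and over all genes tested 0.01. The mean of the members differed between the 2 cells of a clone by a median of 0.20 on the log2 scale, and it was lower in sSC in 7 of the 9 clones with both tissues.

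Genes detected differ widely between these libraries, and the slope of each gene on them was fitted. The count comes from the same values, so a gene below 1 in a cell also lowers that cell's count. Slope and count are therefore not independent. In a fit with tissue on clone means, 43.7% of 14613 genes were called (limma adjusted p under 0.05), and 13831 slopes were above 0. The median slope was 0.27 on the log2 scale per 1000 genes detected. With quantile normalization 887 genes were called, 7432 slopes were above 0 and the median was 0.0036, so the rise of most genes depended on the scaling. Among ribosomal protein genes 19 of 77 were called, all rising (with cells rescaled after leaving out genes above 1% of a total, 18 of 22 called were rising), 44 slopes were above 0, and the median slope was 0.02. The 19 were led by Rpl7 at 0.59 per 1000 genes (SE 0.13, adjusted p = 0.00303), Rps27l at 0.52, Rpl22 at 0.47, Rps20 at 0.45 and Rps13 at 0.41. The others included Rps15, Rpl30, Rpl32, Rpl23, Rpl39, Rpl9, Rpl19, Rpl4, Rpl31, Rplp0, Rps26, Rps6 and Rpl15, with slopes of 0.27 to 0.38. Each of the 19 was listed at 0 in some sSC cell, as were members not called, such as Rps27a.

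Of the 19 calls, all but that of Rpl7 were lost once 1 cell was left out. Without the sSC cell of clone B, 18.4% of 14597 genes were called but only 2 of 77 members. Rpl7 still rose, with a slope of 0.41 (SE 0.14, adjusted p = 0.0376), and Rplp1 fell, with a slope of -0.11 (SE 0.04, adjusted p = 0.0418). The median slope over members was then -0.03, with 26 of 77 above 0, against 0.24 for all genes tested. With the clone as a block, 0 members were called, with 0 of all genes called and 2011 at an unadjusted p under 0.05.

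**Figure D4:**
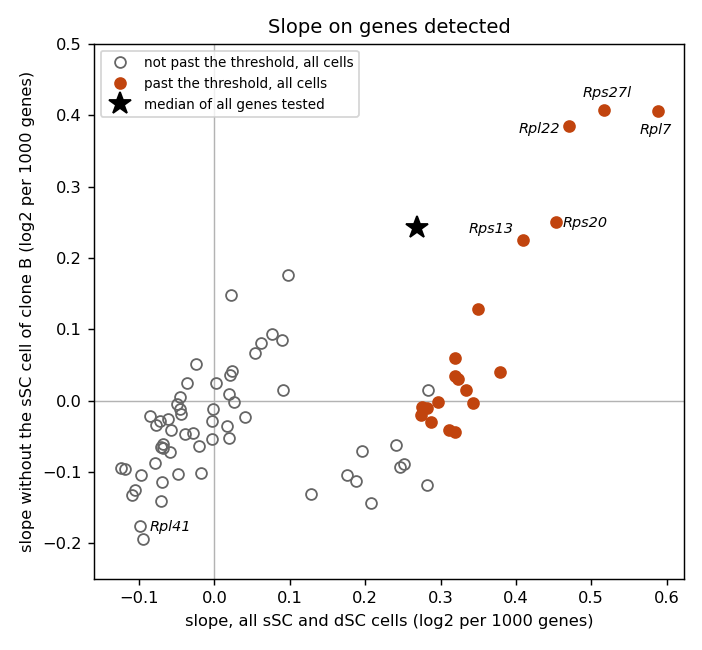
Slope of each of 77 ribosomal protein genes on genes detected, in log2 units per 1000 genes, from all sSC and dSC cells (horizontal) and without the sSC cell of clone B (vertical). The star, at 0.27 and 0.24, is the median of all genes tested; of the members called with all cells (filled), Rpl7, Rps27l, Rpl22, Rps20 and Rps13 are highest on the vertical axis, from 0.41 down to 0.22, and the others lie between -0.04 and 0.13.

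The share of a cell in ribosomal protein genes was smaller in cells with more genes detected. With genes above 1% of the total in any cell left out, which removes Rpl41, the 79 other genes held 1.72% to 5.19% of the rest. That share was largest in the sSC cell of clone H, with 6180 genes detected, and smallest in the sSC cell of clone Q, with 16769. Its correlation with genes detected was -0.63 (Pearson) and -0.49 (Spearman) over 36 cells. It was -0.71 and -0.55 in 22 sSC cells, -0.57 and -0.60 in 12 dSC cells, and -0.48 and -0.40 once the sSC cells of clones B and H, the farthest in genes detected, were left out. These are descriptions, and both measures come from the same scaled values.

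**Figure D5:**
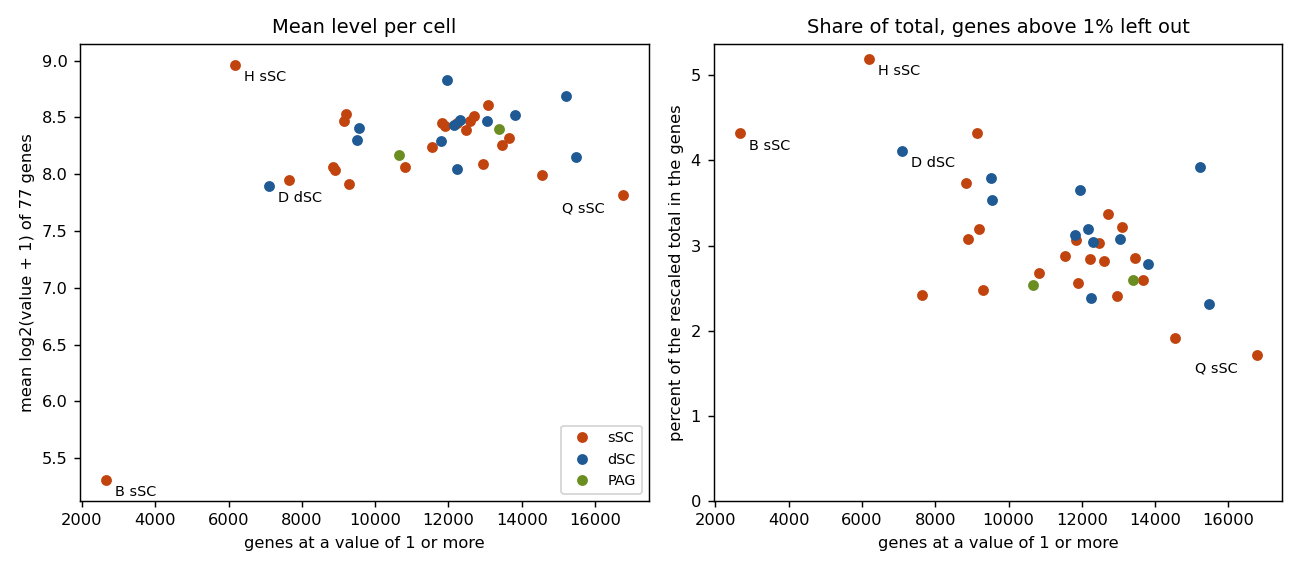
Mean log2(value + 1) of the 77 tested members (left) and percent of the cell total in the members after genes above 1% of a total are left out (right), against genes detected, for 36 cells coloured by tissue. The sSC cell of clone B is alone at a mean of 5.31, and the share on the right runs from 5.19% in the sSC cell of clone H to 1.72% in the sSC cell of clone Q.

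Other genes of the translation machinery gave a comparison from lists. In the genes-detected fit, in which 43.7% of all genes were called, 22 of 31 initiation factors were called, with a median slope of 0.32, and 40 of 78 mitochondrial ribosomal protein genes, with a median of 0.33. Of 38 ribosome biogenesis factors 15 were called, with a median of 0.27, and of 13 tested genes of signalling to the ribosome 8, among them Mtor and Rptor, with a median of 0.31. The called genes of these lists had slopes above 0, other than Mrps21 at -0.18 (adjusted p = 0.0245). Of the 9 elongation factors 1 was called (Eef1d, slope 0.30, adjusted p = 0.0338), with a list median of 0.10. Of the 13 ribosome-associated genes, Rack1 and Rpl7l1 were called, and Fau and Rps3a1 had slopes of 0.04 and 0.06, which did not pass. Of the 81 tested nuclear genes of oxidative phosphorylation 31 were called, with a median of 0.14. These counts rested on the sSC cell of clone B: without it, when 18.4% of all genes were called, they were 7 of 31 initiation factors, 12 of 78 mitochondrial ribosomal protein genes, 10 of 38 biogenesis factors, 4 of 13 signalling genes, 0 of 9 elongation factors (2 at an unadjusted p under 0.05 by limma), 2 of 13 ribosome-associated genes and 0 of 81 oxidative phosphorylation genes (8 at an unadjusted p under 0.05). The list medians were then 0.19, 0.22, 0.26, 0.26, 0.04, -0.04 and 0.0030 in the same order. With the clone as a block 0 genes of these lists were called, as for all genes.

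The most abundant genes of these lists were Eif1 (median 1416) and Eif1b (993) among initiation factors, Eef1a1 (1161) and Tpt1 (1006) in the elongation list, of which Tpt1 is known as a partner of Eef1a1 and is not itself an elongation factor, Fau (1012) and Rps3a1 (616) among ribosome-associated genes, and Nop10 (548) and Npm1 (428) among biogenesis factors. Between sSC and dSC, 0 genes of any of these lists were called by limma, with 0 to 4 at an unadjusted p under 0.05 in each. The median difference was -0.01 over the 9 elongation factors, -0.13 over the 31 initiation factors, -0.41 over the 78 mitochondrial ribosomal protein genes and -0.49 over the 38 biogenesis factors, against -0.26 over the ribosomal protein genes.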

How the data were processed

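Libraries were aligned with STAR 2.7.9a to GRCm39 and handled in R 4.0.3, per the submitters' processing notes; the counter, annotation, strand and formula are not stated. The deposited signal was named by the authors as exon TPM with intron TPM added; it sums to 2000000 per cell and keeps no depth, so no counting interval is given. The plan assumed plain TPM, and its tests on a log scale were kept. Symbols, gene types and intron lengths came from GENCODE M21 on unversioned identifiers (52083 genes matched), which is an annotation of another build, so no positions were taken from it. Values were used as log2(value + 1), a scale that understates differences of low genes. Genes at 1 or more in 25% of cells were tested with limma 3.58.1 (R 4.3.3; trend and robust) on means per clone and tissue, with p-values adjusted by Benjamini-Hochberg over all genes. The clone test was limma's F test over clones on single cells. Scripts were tested on simulated data. The 2 cells of a clone come from 1 animal, since they descend from 1 progenitor, and so are paired by the design; over the 9 clones with both tissues their deviations correlated by -0.02 to 0.07 over all genes and by -0.19 to 0.30 over the members. Genes were named by rule: the 8 highest and 8 lowest medians, the 4 highest and 4 lowest correlations with the other members, Rpl41, and in each comparison the members past the threshold or, where under 6 passed, the 3 per direction with the smallest p; in lists, the 2 highest medians. Mrps21, members singled out for their spread or their highest single value, for stalk partners or for short introns, and other listed genes, were chosen after their values were seen. Single values of a few genes are not reported here. The members and lists were chosen with earlier results of these data known.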

Additional observations from a re-analysis of the deposited data

Results flagged for a closer look

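In the dSC cells of Sox2-CreER clones, clone D lay apart from the other 3 clones. The mean log2(value + 1) of its ribosomal protein genes was 7.90, against 8.44 to 8.52 in the others, a gap of 0.861 of the whole range over 4 clones. In the same cell Rps27l was listed at 0, against clone means of 7.46 to 7.59 on that scale in the others, a gap of 0.983 of the range. That cell had 7095 genes detected. Chance flags about 1 in 20 groups, and 27 groups were examined. Both flags concern the same cell, and Rps27l is among the genes of the flagged mean, so the flags are not independent.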

How the results depend on the processing

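No member was called under any alternative in the tissue comparison (30 alternatives), between drivers in sSC (25) or dSC (19), or among clones (25), and the coordination median stayed at 0.26 to 0.35. The count of members called on genes detected, 19, was 27 with a pseudocount of 0.1, 25 with the filter at 50% of cells, 22 after rescaling (4 of them falling), 18 without trend and robust, 14 with no filter, 9 with a pseudocount of 10, 5 with quantile normalization, 2 without the sSC cell of clone B and 0 with the clone as a replicate block, and 2 to 24 when single clones were left out. The median share of a cell, 2.22% over 80 genes, was 2.02% without Rpl41 and 3.04% for the same 79 genes once 32 genes above 1% of a total in any cell, Rpl41 among them, were left out. Signs of some uncalled or lost values turned. Without the sSC cell of clone B, the clone correlation was -0.048 for Rplp2, and slopes on genes detected were -0.021 for Rpl15, -0.044 for Rpl19, -0.011 for Rps26, -0.0085 for Rps6, -0.042 for Rpl4, -0.0030 for Rpl32, -0.0295 for Rplp0 and -0.0019 for Rpl31. Leaving out single clones gave slopes of -0.021 to 0.37 for Rpl15, -0.043 to 0.40 for Rpl19, -0.0105 to 0.35 for Rps26, -0.0084 to 0.34 for Rps6, -0.0403 to 0.38 for Rpl4, -0.0032 to 0.44 for Rpl32, -0.0300 to 0.37 for Rplp0 and -0.0023 to 0.37 for Rpl31. It gave driver differences of -0.21 to 2.16 for Rpl34 and -0.0093 to 1.15 for Rpl41 in sSC and -0.99 to 0.84 for Rpl41 in dSC, and clone correlations of -0.048 to 0.35 for Rplp2. The replicate block gave a slope of 0.11 for Rpl41 on genes detected; it changed no call of a member between tissues. The cause of these moves was not tested. Depth is unknown, so a value of 0 may be a missed transcript, and clones that share an animal cannot be told apart.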
